A study of Caenorhabditis elegans with 2 samples.

Results

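The genes described here encode the translation factors and aminoacyl-tRNA synthetases of Caenorhabditis elegans, and the measurement is the chromatin recovered with the homeodomain protein TTX-3 at their promoters. The members were the protein-coding genes of the Ensembl WBcel235 annotation whose names begin with eif, eef, iff or ife, or that carry a synthetase name (an amino acid letter followed by ars) with the number 1 or 2. The name rule gave 69 of 19985 protein-coding genes, 38 for translation factors and 31 for synthetases. Of the synthetases, 20 were counted as cytosolic and 11 as mitochondrial, 14 from the RefSeq product name and 17, where that name gave no compartment, from the number in the gene name. No class was kept for a gene that may serve both compartments. Members without a partner of the same letter, such as kars-1 and tars-1, were therefore placed in a single compartment.

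The data come from chromatin immunoprecipitation followed by sequencing (ChIP-seq) in 1 group of 2 biological replicates, with no second condition. Both used whole hermaphrodite late embryos of strain OP68 (unc-119(ed3) III; wgIs68), collected 4 hours after synchronization by egg bleaching. The transgene expresses TTX-3 with a C-terminal GFP-FLAG tag, and an antibody against GFP was used. Both replicates carry the same insertion, and the values are sums over all cells of the embryo, so the cells a signal comes from cannot be told apart. Sequencing depth is unknown, because the deposited lists hold no read counts. The 2 replicate lists and a pooled list have 30000 regions apiece, which the authors' peak signal ranks. They are deposited as peaks and background, so a weak entry need not be a binding site. A shorter list, called optimal here, was thresholded by the authors on the irreproducible discovery rate. It holds the 700 strongest regions of the pooled list, with signals down to 72.5. The promoter window of a gene ran from 1000 bp before to 300 bp past any annotated 5' end. A gene took the signal of the strongest summit inside its window. The authors' signal has no stated scale between lists, so values of different lists are set side by side without a fold.

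TTX-3, of the LIM class of homeodomain proteins, is best known from the AIY interneurons, a small fraction of the cells of an embryo. Translation initiation factors bring the small ribosomal subunit, the initiator tRNA and the mRNA together, and eIF3 is the large multisubunit complex that holds these parts in place. Elongation factors deliver charged tRNAs to the ribosome and move it along the message. Each aminoacyl-tRNA synthetase joins an amino acid to its tRNAs, and most amino acids have separate enzymes for the cytosol and the mitochondrion, both encoded in the nucleus.

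Promoters of these genes carried optimal peaks at 11 of 69 members (15.9%), against 601 of 19985 protein-coding genes (3.01%). The 11 were, from the strongest down, ears-2, eif-3.C, eef-1A.1, eif-3.E, eif-3.I, iff-2, eif-3.B, eif-3.J, eif-2D, fars-1 and eif-4A3. Translation factors supplied 9 of 38 (23.7%) and synthetases 2 of 31 (6.45%). Within the factors, eIF3 subunits stood at 5 of 11 (45.5%). Members outside eIF3 stood at 6 of 58 (10.3%). With only the stronger 350 optimal peaks, 4 members were counted (ears-2, eif-3.C, eef-1A.1 and eif-3.E), which is 5.80% against 1.39% of all genes. With the 700 strongest peaks of each replicate in place of the optimal list, the members counted were 10 of 69 in replicate 1 (14.5%, against 2.81% of all genes) and 9 of 69 in replicate 2 (13.0%, against 2.70%). The gap between the classes was present in replicate 1 (8 of 38 factors and 2 of 31 synthetases) and not in replicate 2 (5 of 38 and 4 of 31, or 13.2% and 12.9%). With a single group no test between groups was possible, so these shares are descriptions beside those of all genes.

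**Figure D1:**
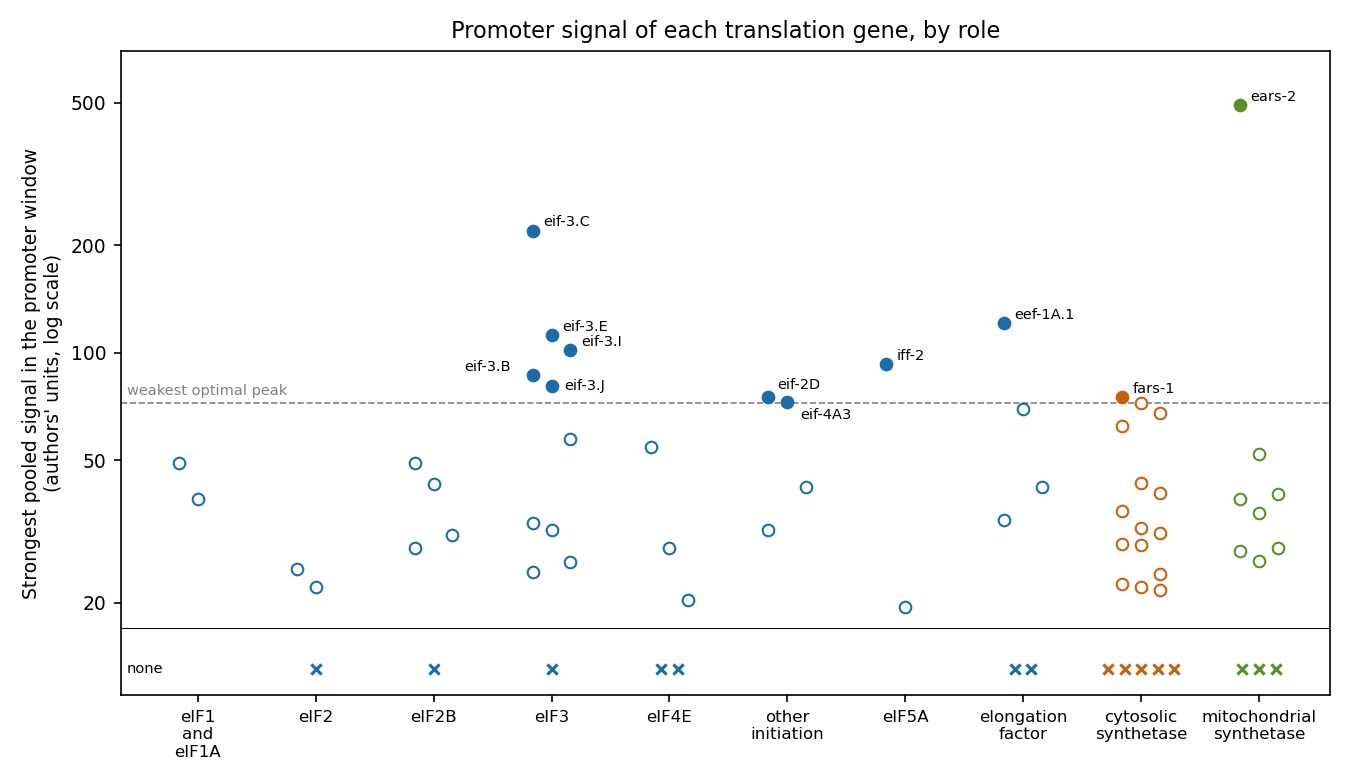
Strongest pooled signal (authors' units, log scale) in the promoter window of each of the 69 genes, by role; filled points have an optimal summit, open points a weaker summit, and crosses under the line no pooled summit. The dashed line is the weakest optimal peak (72.5). ears-2 stands highest at 494, and 5 of the 11 eIF3 genes lie above the line.

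The DNA at the centre of the peaks is given for 4 optimal members on chromosomes II, III and IV, so that the base composition and short motifs described next can be read in place. Each is 201 bases of WBcel235 (ce11) centred on the pooled summit, written 5' to 3' along the strand of the gene, with capitals for GCGC and for GCAACGA on either strand. They lie at chrIV:390402-390602 (minus strand) for ears-2, chrIII:6971978-6972178 (minus) for eef-1A.1, chrII:8561323-8561523 (minus) for iff-2 and chrII:14795060-14795260 (plus) for eif-3.B. The fifth, at chrII:11694506-11694706 (minus), belongs to tars-1, whose peak was just too weak for the optimal list.
ears-2: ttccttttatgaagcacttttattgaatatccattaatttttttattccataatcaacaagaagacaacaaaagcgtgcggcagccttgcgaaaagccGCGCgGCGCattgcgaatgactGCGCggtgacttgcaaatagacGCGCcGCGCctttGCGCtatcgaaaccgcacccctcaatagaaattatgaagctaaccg
eef-1A.1: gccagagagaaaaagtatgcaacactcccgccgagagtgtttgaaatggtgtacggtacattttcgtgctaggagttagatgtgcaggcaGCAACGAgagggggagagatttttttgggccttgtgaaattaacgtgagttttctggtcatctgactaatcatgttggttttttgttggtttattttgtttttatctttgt
iff-2: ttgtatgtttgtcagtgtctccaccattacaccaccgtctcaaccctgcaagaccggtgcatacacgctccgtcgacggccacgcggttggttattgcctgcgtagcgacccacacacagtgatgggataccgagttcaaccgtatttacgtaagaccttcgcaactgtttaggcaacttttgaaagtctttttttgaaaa
eif-3.B: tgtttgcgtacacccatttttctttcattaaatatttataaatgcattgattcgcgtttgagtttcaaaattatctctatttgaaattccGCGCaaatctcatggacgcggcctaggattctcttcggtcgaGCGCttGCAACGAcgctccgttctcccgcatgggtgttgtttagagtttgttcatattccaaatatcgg
tars-1: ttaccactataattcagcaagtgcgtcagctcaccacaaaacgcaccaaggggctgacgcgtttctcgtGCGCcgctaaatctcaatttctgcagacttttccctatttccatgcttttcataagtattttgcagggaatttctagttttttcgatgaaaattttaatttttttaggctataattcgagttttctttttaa

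GCGC, which is its own reverse complement and is part of GCGCAC, was present in the 201 bases of 9 of the 11 optimal members (81.8%). It was present at 66.2% of optimal summits in promoter windows of any gene, 59.6% of all optimal summits and 23.6% of all pooled summits. Within 101 bases the members stood at 63.6%, against 55.6% of the optimal summits in promoter windows. The longer GCGCAC was in 2 of the 11 windows of 201 bases (18.2%), against 23.4% of optimal summits in promoter windows and 17.9% of all optimal summits. The ears-2 window held 6 copies of GCGC, eif-3.C 3, and eef-1A.1 and iff-2 none. GCAACGA, searched on both strands, was present in 4 of the 11 windows (eif-3.C, eif-3.E, eif-3.B and eef-1A.1). It was present in 1 of 43 windows of members with a weaker pooled summit, in 4.35% of optimal windows in promoters, in 2.86% of all optimal windows and in 1.44% of all pooled windows. GCGC and GCAACGA were picked out after these sequences had been read, so their counts are descriptions of these windows. TAATTA, the core recognised by LIM homeodomain proteins, was in none of the 11 windows, against 11.4% of optimal windows in promoters, 10.7% of all optimal and 12.8% of all pooled windows, which says only that these letters are not there. GTTCGA, a sequence of the internal promoter of tRNA genes, was in none of the 11 either, against 15.0%, 26.0% and 6.61%. No gene annotated as tRNA, snoRNA or snRNA lay within 100 bp of any of the 11 summits. Genes annotated as microRNA, such as cel-mir-5549 at the eef-1A.1 summit, were not among these classes. In the 101 bases around the summit the median GC content was 49.5% for the 11 and 31.7% for the 43 members with weaker summits, with 47.5% at optimal summits in promoter windows, 48.5% at all optimal summits and 32.7% at all pooled summits.

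The 5 eIF3 genes with optimal peaks encode subunits B, C, E, I and J. At eif-3.C (WBGene00001226, region chrI:9979686-9980135) the signal was 219.8 in the pooled list, 115 (replicate 1) and 100.3 (replicate 2), and the peak ranked 85 of 30000. Its summit was intergenic, 249 bp upstream of the 5' end. It was the second strongest of all members. At eif-3.E (WBGene00001228, chrI:10642279-10642728) the signal was 112, with 73.3 (replicate 1) and 37.8 (replicate 2). At eif-3.I (WBGene00001232, chrI:2485409-2485858) it was 102, with 45.7 and 59.0. At eif-3.B (WBGene00001225, chrII:14794935-14795384) it was 86.7, with 26.4 in replicate 1 (rank 2656) and 50.1 in replicate 2 (rank 396). The replicates thus ranked eif-3.B far apart, and did not order eif-3.E and eif-3.I alike. The summits of eif-3.B, eif-3.C, eif-3.E and eif-3.I lay 244, 249, 223 and 227 bp upstream in the pooled list. Their strongest summits lay at 313, 268, 238 and 247 bp in replicate 1 and at 245, 250, 212 and 230 bp in replicate 2, a wider spread than in the pooled list. Over all genes with an optimal summit the median distance was 257 bp, so these positions are not particular to eIF3. The fifth, eif-3.J (WBGene00012738), had its summit 917 bp upstream, in a UTR of the neighbouring gene slc-25A46, with a signal of 80.7 (47.3 and 32.7 in replicates 1 and 2). With a window of 500 bp upstream to 100 bp downstream, eif-3.J was no longer counted.

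The other eIF3 genes were weaker. eif-3.G had a pooled signal of 57.4, found in replicate 1 (33.3) and absent from the list of replicate 2. eif-3.H, eif-3.K and eif-3.F had 33.3, 32.0 and 26.0. eif-3.L had no summit in any list. eif-3.D was a special case. Its summits in the replicate lists lay 254 bp upstream in replicate 1 (signal 67.8, rank 280) and 227 bp upstream in replicate 2 (33.9, rank 1074). The pooled list held nothing there: its nearest summit was 662 bp from that of replicate 1, with a signal of 24.4. Counted in the strongest 700 peaks, eIF3 stood at 5 of 11 in replicate 1 (45.5%), eif-3.D included and eif-3.B not, and at 3 of 11 in replicate 2 (27.3%). All genes stood at 2.81% in replicate 1 and 2.70% in replicate 2.

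**Figure D2:**
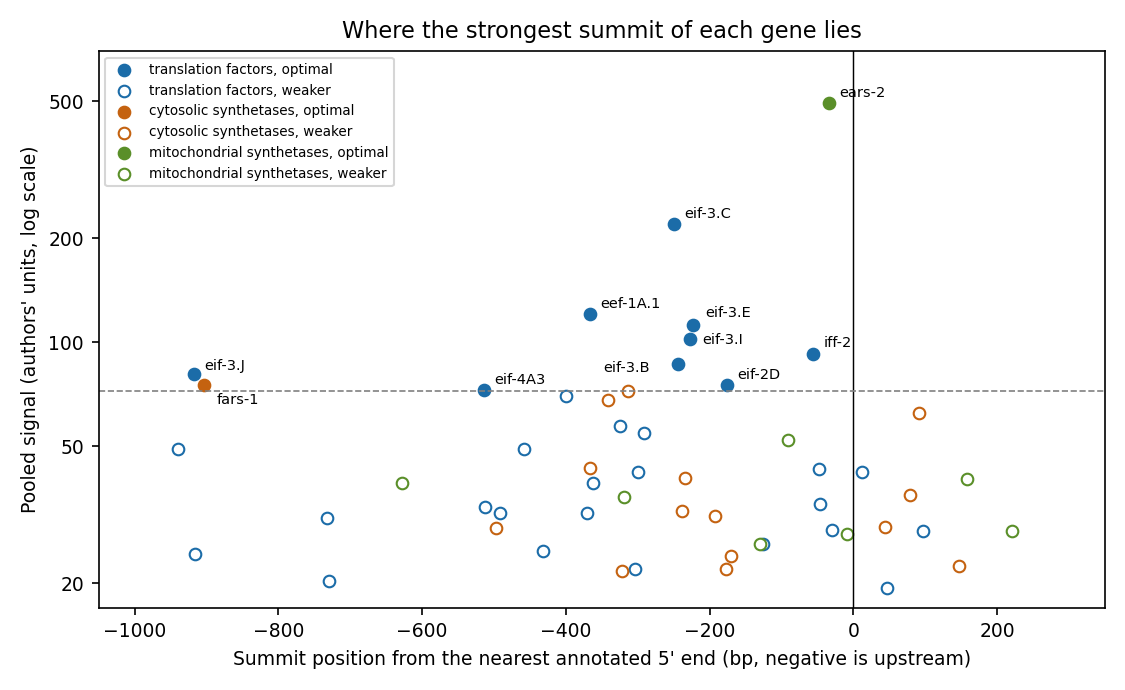
Position of the strongest pooled summit of the 54 genes that have one, from the nearest annotated 5' end (x axis, bp, upstream negative), against its pooled signal (y axis, authors' units, log scale); filled points are optimal, and the dashed line is the weakest optimal peak. All 11 optimal summits lie upstream, and those of eif-3.B, eif-3.C, eif-3.E and eif-3.I lie between 223 and 249 bp in the pooled list. The median distance over all genes with an optimal summit is 257 bp.

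Among the other genes grouped by name as initiation factors (eif, ife and iff), 3 of 21 carried an optimal peak (14.3%, against 3.01% of all genes). iff-2 (WBGene00002065, chrII:8561198-8561647), which encodes the eIF5A protein that relieves stalled ribosomes, had a signal of 92.8, with 57.2 (replicate 1) and 36.5 (replicate 2). Its germline paralog iff-1 had 19.4, close to the weakest entry of the pooled list. The iff-1 summits were weak in replicate 1 (15.9) and stronger in replicate 2 (29.9), at other positions. eif-2D (WBGene00016113), for a noncanonical factor that can place tRNA in the ribosome, had 75.2, with 43.7 and 29.0. eif-4A3 (WBGene00022029, chrI:636634-637083), whose product is an RNA helicase of the exon junction complex, had 72.6, with 39.1 and 37.1. That peak ranked 698 in the pooled list, just inside the limit, and lay in a UTR of vps-20, on the opposite strand. The narrower window and the nearest-gene rule did not count it for eif-4A3.

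For the factors that select the start codon and charge the small subunit, no optimal summit was present, and at the all-gene share of 3.01% a count of 0 in so few genes says nothing particular about them. eif-1 and eif-1.A had 49.2 and 39.0. The eIF2 complex, which carries the initiator tRNA, had 22.1 at eif-2beta, 24.8 at eif-2gamma and no summit in any list at eif-2alpha. Those 2 values are under the median of 30.9 over all genes with a pooled summit. Of the 5 genes of eIF2B, the exchange factor of eIF2, none was optimal. eif-2Bgamma had 49.0, eif-2Bdelta 42.9, eif-2Balpha 31.0 and eif-2Bbeta 28.4, and eif-2Bepsilon had no summit. The eif-2Bgamma summit was the only pooled member summit with a gene annotated as tRNA, snoRNA or snRNA within 100 bp (sup-39 and mir-1831, both entered as snRNA in the annotation), and it was absent from the window in replicate 1. Of the cap-binding eIF4E genes, ife-2 had 54.6 (16.7 and 38.5 in replicates 1 and 2), ife-3 28.5 and ife-5 20.3, while ife-1 and ife-4 had no pooled summit. ife-3 was counted when the window reached 2000 bp upstream or when any overlap of the region was enough. eif-6, a factor of large subunit assembly, had 42.2, and eif-2A had 32.0.

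Of the 6 elongation factor genes, only eef-1A.1 carried an optimal peak (16.7%, against 3.01% of all genes). Its product, eEF1A, is the abundant carrier of charged tRNA. The peak (WBGene00001168, chrIII:6971853-6972302) had a signal of 121, with 68.2 (replicate 1) and 48.7 (replicate 2). The summit lay 366 bp upstream, within the annotated microRNA gene cel-mir-5549 and in the window of the divergent gene rfc-4. When each summit was given to the nearest 5' end alone, it was no longer counted for eef-1A.1. The paralog eef-1A.2 had 69.8, just under the limit, with 28.6 (replicate 1) and 47.4 (replicate 2), where it was among the strongest 700. Those replicate summits were 147 bp apart, at 535 and 388 bp from the 5' end. In replicate 1 eef-1A.1 was the higher of the pair by a wide margin, and in replicate 2 the pair was close. eef-2, for the translocation factor, had 42.1 and eef-1B.2 34.0. eef-1B.1 and eef-1G had no pooled summit.

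The strongest peak of all members was at the synthetase gene ears-2 (WBGene00001338), for the mitochondrial glutamyl-tRNA enzyme. Its region, chrIV:390298-390657, had a signal of 494, with 262 (replicate 1) and 228 (replicate 2), and ranked 11, 17 and 9 in the pooled, replicate 1 and replicate 2 lists. The replicates placed the summit 2 bp apart. It lay 34 bp upstream of ears-2, in the 92 bp between that gene and the divergent gene uncp-18, so the peak cannot be assigned to either. The region was 360 bp wide, against 450 bp for the others.

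Without ears-2 the synthetases were less prominent. The only other optimal peak was at fars-1 (WBGene00001497, chrI:6215363-6215812), for a subunit of the cytosolic phenylalanyl enzyme. Its signal was 75.1, with 38.6 (replicate 1) and 34.9 (replicate 2), and its summit lay 903 bp upstream in a UTR of T08B2.15 and in the window of rbm-5. Neither the narrower window nor the nearest-gene rule counted it for fars-1. Just outside the limit, tars-1 (threonyl) had 72.4, with 29.1 (replicate 1) and 42.8 (replicate 2). Its summit lay inside the tars-1 gene, upstream of an internal 5' end, and in an intron of the overlapping gene kel-1. mars-1 (methionyl) had 68.0, with 35.4 and 30.0, and vars-1 (valyl) had 62.5, inside its own coding exon 92 bp from the 5' end. The strongest vars-1 summits of the replicates were at other distances, 71 bp (27.6, replicate 1) and 257 bp (39.3, replicate 2), so they are not the same position. tars-1 and vars-1 were among the strongest 700 peaks in replicate 2 and not in replicate 1.

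kars-1, for the lysyl enzyme, had strong peaks in both replicate lists and a weak one in the pooled list. Its summits had signals of 52.1 in replicate 1 (rank 446) and 51.7 in replicate 2 (rank 362), at positions 7072731 and 7072758 of chromosome II, 316 and 343 bp upstream. In the pooled list the nearest summit was 181 bp from that of replicate 1, with a signal of 29.0 and rank 12243. Of 413 peaks among the strongest 700 of both replicates, 6 had no pooled summit within 100 bp, and that of kars-1 was among these 6. The members among the strongest 700 in both replicates were 5: ears-2, eif-3.C, eef-1A.1, eif-3.I and kars-1. The first 4 were optimal, so 7 of the 11 optimal members were outside the strongest 700 of at least 1 replicate.

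Cytosolic synthetases had an optimal peak at 1 of 20 (5.00%) and mitochondrial ones at 1 of 11 (9.09%). Over all genes the share was 3.01%, and 1 gene in groups this small does not separate the compartments. Among the strongest 700 peaks of replicate 2 alone the cytosolic count was 3 of 20 (kars-1, tars-1 and vars-1). The mitochondrial count was 1 of 11, and all genes stood at 2.70%. The median pooled signal was 32.4 over the 15 cytosolic genes with a summit and 37.3 over the 8 mitochondrial ones. Next to ears-2, the strongest mitochondrial synthetases were yars-2 (52.0), aars-1 (40.2) and fars-2 (39.0). In replicate 1 these had 38.9, 33.6 and 19.8. In replicate 2, yars-2 had no summit, and aars-1 and fars-2 had 16.0 and 19.7. The aars-1 summits of the replicates were 221 bp apart. For 11 amino acids both a cytosolic and a mitochondrial member exist. The cytosolic gene had the higher pooled signal in 3 pairs (fars-1 and fars-2, lars-1 and lars-2, nars-1 and nars-2), the mitochondrial one in 5, and in 3 neither had a pooled summit. Of the genes in these pairs, only ears-2 and fars-1 had an optimal peak. The other pooled entries were weaker and can be background, so the counts of 3 and 5 do not separate the compartments. The replicate lists kept the pooled order for the alanyl, glutamyl and phenylalanyl pairs. For asparagine it turned in replicate 1 (nars-1 17.4, nars-2 26.9), and in replicate 2 the pair was nearly level (23.0 and 23.1). The strongest summits of the replicates were 148 bp apart at nars-1 and 8217 bp apart at nars-2, so they are not the same positions. For proline the order turned in both replicates. The pars-1 summits had 18.1 and 23.6 and lay 917 bp apart. pars-2 was absent from replicate 1 and had 21.5 in replicate 2. In replicate 2 the order also turned for leucine (lars-1 14.0, lars-2 17.7) and for tyrosine (yars-1 24.3, yars-2 none). The seryl pair had a replicate summit at sars-2 in replicate 1 alone (21.5). The widest gap was between ears-1 at 22.5 and ears-2 at 494. The valyl gene vars-1 was counted as cytosolic by its number, although glp-4, which the name rule leaves out, is the cytosolic valyl enzyme. Counting vars-1 as mitochondrial left 1 of 19 and 1 of 12 with an optimal peak. Among the strongest 700 of replicate 2 it gave 2 of 19 cytosolic (10.5%) and 2 of 12 mitochondrial genes (16.7%). The order of the compartments in replicate 2 thus depended on where vars-1 was placed.

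**Figure D3:**
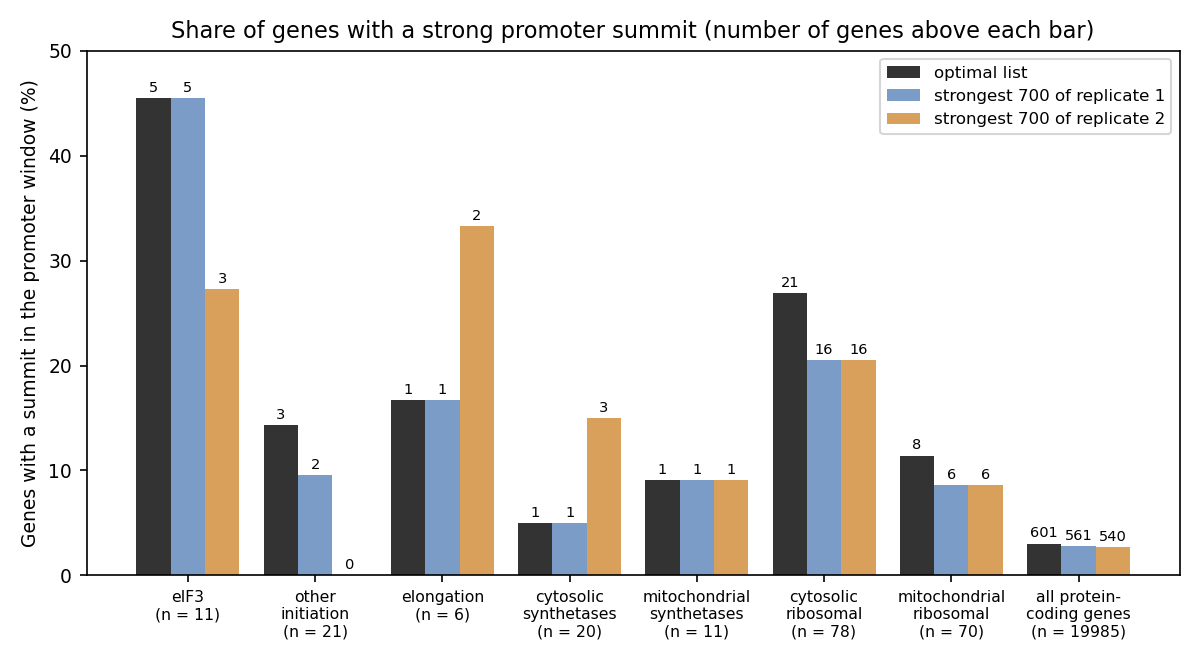
Share of genes with a strong summit in the promoter window (y axis, percent), by group, for the optimal list and for the 700 strongest peaks of each replicate; the number of genes is above each bar. eIF3 stands at 5, 5 and 3 of 11 genes, and all protein-coding genes at 601, 561 and 540 of 19985.

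Weaker summits were common. A summit of the pooled list lay in the window of 54 of 69 members (78.3%), against 39.9% of all genes. Their median signal was 39.0, against 30.9 over all genes with one, and 37 of the 54 were above that value. By class, 31 of 38 factors had one, with a median of 42.2, and 23 of 31 synthetases, with a median of 35.7. Among genes with a pooled summit, 20.4% of the members had an optimal one, against 7.54% of all genes. At members with a weaker summit the deposited −log10 q-value ran from 1.41 (tars-1) down to 0.0871 (iff-1). It was 0.185 at fars-2, whose signal was 39.0, so these entries can be background. In the whole replicate lists, 49 members had a summit in replicate 1 (71.0%, against 41.5% of all genes) and 53 in replicate 2 (76.8%, against 40.9%). Summits of both replicates were present at 43 members (62.3%, against 26.3%). No summit of any list was present at 8 members: dars-2, eef-1G, eif-2Bepsilon, eif-2alpha, eif-3.L, iars-1, ife-1 and rars-2.

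At all 11 optimal members each replicate had a summit within 100 bp of the pooled one, and the strongest summits of the replicates were 2 to 68 bp apart. The optimal list holds the strongest regions of a pooled list made from these replicates, cut on the irreproducible discovery rate, so that closeness is a description. The strongest summits of the replicates lay farther apart at tars-1 (109 bp), eef-1A.2 (147 bp) and vars-1 (186 bp), which were strong in replicate 2. Over the 43 members with a summit in both lists, the strongest 2 lay within 100 bp at 25 (58.1%), against 39.0% of the 5254 genes with both. Across the 43 members Spearman's correlation of the replicate signals was 0.650, and across all 5254 genes 0.487. The replicate lists share a control alignment, and neighbouring genes can share a summit, so the values are descriptions.

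**Figure D4:**
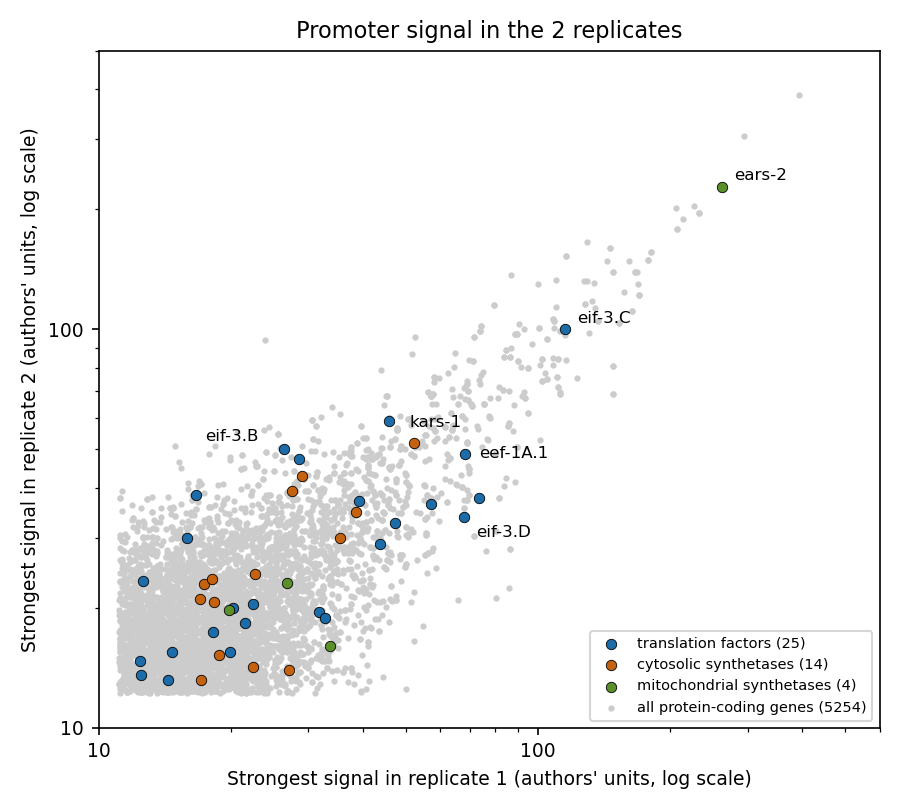
Strongest promoter signal in replicate 1 (x axis) and replicate 2 (y axis), both in the authors' units on log scales, for the 43 members with a summit in both lists and for all 5254 such genes (grey). ears-2 (262 and 228) and eif-3.C (115 and 100.3) stand apart from the other members, and kars-1 (52.1 and 51.7) lies beside genes with optimal peaks.

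The optimal summits of the members were upstream of the gene in 11 of 11 cases, at a median distance of 244 bp. Over all genes with an optimal summit 93.8% were upstream, at a median of 257 bp. Of the 43 weaker member summits, 34 were upstream of the nearest annotated 5' end. Those of tars-1, fars-2, nars-2, qars-1, eif-2beta and ife-5 lay inside the member's own gene, upstream of an internal 5' end. By annotation, 7 of the 11 optimal summits were intergenic, 3 lay in a UTR of a neighbouring gene and 1 in a microRNA gene, while 19 of the 43 weaker ones were intergenic, 11 in introns and 7 in coding exons. The summit also lay in the window of another protein-coding gene, always on the opposite strand, for 8 of the 11 optimal members. The share over all genes with an optimal summit was 60.2%, counting neighbours on either strand. For those 8 the peak belongs to the shared region and not to the member alone. The neighbour was ndub-5 for eif-2D, abtm-1 for eif-3.I, B0511.17 for eif-3.E and F54C9.14 for iff-2.

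Other genes of translation, from a list of 28 symbols of which 26 were found in the annotation, had an optimal peak at 4 of 26 (15.4%). The share over all protein-coding genes was 3.01%. Replicate values follow in brackets, replicate 1 before replicate 2. erfa-3, for the GTPase partner of the release factor, had the strongest, with 186 (102 and 84.1). larp-1, for an RNA-binding protein, had 120.3 (63.7 and 56.0). The mitochondrial elongation factor genes gfm-1 and tufm-2 had 84.5 (46.1 and 44.6) and 79.8 (42.5 and 43.1). fars-3, for the other subunit of the cytosolic phenylalanyl enzyme, came next with 69.4, under the limit. ifg-1 and inf-1, for eIF4G and eIF4A, had 23.9 and 24.2, and pab-1, for the poly(A)-binding protein, had none. Among ribosomal protein genes, 21 of 78 cytosolic ones (26.9%) and 8 of 70 mitochondrial ones (11.4%) had an optimal peak, with median pooled signals of 49.3 and 37.7 over the genes with a summit. The 69 members, at 15.9% and 39.0, lay between these lists, and all protein-coding genes stood at 3.01% and 30.9.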

How the data were processed

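The lists on ce11 were used, and those on ce10 were not. According to the deposited descriptions, a replicate's list came from its own alignments and a control alignment common to the replicates. The pooled list came from all of these, and the optimal list by thresholding on the irreproducible discovery rate. The aligner, caller, versions and threshold were not given in the sources used here, and the control was not analysed here. Signal, as deposited, is the peak strength from the authors' caller, with no stated scale between lists, and serves here for order within a list. The deposited −log10 q-values lay between 1.40 and 1.51 in the optimal list. No list holds counts, so depth and the precision it gives are unknown.

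Summits were placed on Ensembl release 115 (WBcel235, the coordinates of ce11). Compartments came from RefSeq product names, then from the gene number. Sequences are from the RefSeq WBcel235 genome. That of the eif-2D summit is not reported here. The members, lists, motifs and groupings were chosen with earlier results of these data known. Named genes were all members with an optimal summit, the 4 strongest of each class, the 3 ranked just below the optimal list and members without a pooled summit; further members are named to account for their role group, and kars-1 and eif-3.D after their values were seen. No test was run, because there is 1 group of 2 replicates. The motifs GCGC and GCAACGA were added after the sequences were read. Window assignment was tested on simulated data. Alternatives were other windows, the stronger 350 optimal peaks, each replicate alone, no summits at small RNA genes, the nearest gene alone, region overlap and other compartment rules. Python 3.11.15, numpy 2.4.6, scipy 1.17.1 and matplotlib 3.10.9 were used.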

Additional observations from a re-analysis of the deposited data

How the results depend on the processing

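No paired analysis was possible because there is 1 group and no second group that shares its replicate numbers. The count of members with an optimal summit (11) was 8 to 12 under the window, small RNA, nearest-gene and overlap settings (11.6% to 17.4%). All genes stood at 2.07% to 3.84% under those settings. The count was 4 with the stronger 350 peaks (5.80%), where all genes stood at 1.39%. To leave out a replicate, the 700 strongest peaks of the other were used in place of the optimal list. The kind of list therefore changed along with the replicate. This gave 9 to 10 members, but 6 of the 11 were lost and 4 gained without replicate 1. Without replicate 2, 3 were lost and 2 gained. Translation factors then stood at 5 to 8 of 38, against 9, synthetases at 2 to 4 of 31, against 2, and cytosolic synthetases at 1 to 3 of 20, against 1. Without replicate 1 the classes were thus 5 of 38 factors (13.2%) and 4 of 31 synthetases (12.9%), so the gap between the classes was not present in replicate 2 alone. With the stronger 350 peaks there were 3 factors, 1 synthetase and 0 cytosolic synthetases. With the window of 500 bp upstream, and likewise with the nearest gene alone, there were 1 synthetase and 0 cytosolic ones. The median signal was 23.1 to 26.4 in the single replicate lists, whose scale differs from that of the pooled list. Members with a summit in both replicates were 5 when the strongest 700 peaks were used in place of the whole lists. The cause of these changes was not tested, beyond the shorter lists and windows. The counts for vars-1 as mitochondrial were added after seeing the data.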

Other observations

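At 7 members a replicate list held a summit where the pooled list held none: aars-2 (18.8 in replicate 1 and 15.2 in replicate 2), dars-1 (17.1 and 13.2), eef-1B.1 (12.5 and 13.6), ife-4 (21.5 and 18.3), pars-1 (18.1 and 23.6), iars-2 (20.1 in replicate 2 alone) and rars-1 (35.2 in replicate 2 alone). The rars-1 summit ranked 935 in replicate 2, at 982 bp upstream. The pooled list had its counterpart at 1057 bp, with a signal of 35.8, just beyond the window.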
